A study of Mus musculus with 6 samples.

Results

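Erythroid genes were followed in bulk RNA sequencing of mouse inner ear, in 6 libraries, of which 3 carry the genotype label WT and 3 the label Pou3f4y/- (KO). The set was defined by name, as the rows of the deposited gene count table called by 32 symbols of globins, haem synthesis, erythroid transcription factors and the red cell membrane. Of these, 31 had a row, out of 55401 genes in the table; Ahsp was not analysed here. Labels name inner ear cells of all kinds, also calling them interstitial cells, and give no strain, age, sex, treatment agent, dissection, or construction of the mutant allele, nor whether each library came from 1 animal or a pool.

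Red cells arise in bone marrow from nucleated erythroblasts. GATA1, TAL1 and KLF1 switch on the globin genes, the haem pathway and the membrane skeleton, and the nucleus is then expelled, leaving a reticulocyte that still holds globin mRNA. Haem is built from glycine and succinyl-CoA by a chain of enzymes that begins with ALAS2 in mitochondria and ends there with ferrochelatase. The temporal bone around the inner ear contains marrow and blood vessels, so whole-ear RNA can contain transcripts of erythroblasts and of circulating cells.

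Totals ranged from 18409409 to 23323953 counts per library. Pou3f4 had 1044, 2140 and 2233 counts in the WT libraries, in replicate order, against 45, 28 and 30 in KO, which matches the genotype labels. KO replicates 2 and 3 are labelled hemizygous but held 15783 and 15119 counts of Xist, as WT replicates 1 and 2 did (11165 and 9143), and no Y-linked reads, which appeared in WT replicate 3 (3160 counts) and KO replicate 1 (4545 counts). WT replicate 1 stood apart from the other libraries in the erythroid genes. Fits without it are given below for part of the results, beside those from all 6 libraries. It was singled out from the values of these same genes. The fits without it are thus no independent support for lower levels in KO. Of 12 inner ear markers, all had counts, with summed levels of 795 to 1982 CPM across WT, against 799 to 905 CPM across KO (CPM, counts per 1000000 after scaling for composition). The highest WT means in this list belonged to Coch (613 CPM, KO mean 256), Otor (349 CPM, KO mean 131) and Otos (228 CPM, KO mean 83.6). Tectb came next and was higher in KO (WT mean 77.4 CPM, KO mean 94.9). Fitted changes were below 0 in 6 of the 12. The sums thus rest largely on Coch, Otor and Otos, and do not measure how much inner ear tissue a library held.

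The promoters of the main globin genes, Alas2 and Klf1 are shown because the results turn on the levels of these genes. Each line gives the 150 bases before the RefSeq start of the gene in build GRCm38.p6, on the strand of the gene. Capitals mark matches on either strand to GATAA (the core that GATA factors bind), to CACCC (the box that KLF1 binds), to the box CCAAT, to the TATA box letters TATAA, to the E-box letters CAGNTG and to the longer NFE2 type motif TGAGTCA; no 2 marked motifs overlap. Hba-a1 is at chr11:32283522-32283671 and Hba-a2 at chr11:32296342-32296491, both on the plus strand. Hbb-bs is at chr7:103827929-103828078 and Hbb-bt at chr7:103813924-103814073, both on the minus strand. Alas2 is at chrX:150547267-150547416 and Klf1 at chr8:84901832-84901981, both on the plus strand.
Hba-a1: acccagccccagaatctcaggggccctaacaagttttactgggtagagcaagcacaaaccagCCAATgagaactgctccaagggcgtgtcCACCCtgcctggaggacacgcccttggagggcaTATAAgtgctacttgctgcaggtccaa
Hba-a2: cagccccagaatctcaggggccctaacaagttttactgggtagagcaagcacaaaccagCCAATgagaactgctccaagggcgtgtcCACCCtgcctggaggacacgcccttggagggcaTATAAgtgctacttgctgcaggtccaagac
Hbb-bs: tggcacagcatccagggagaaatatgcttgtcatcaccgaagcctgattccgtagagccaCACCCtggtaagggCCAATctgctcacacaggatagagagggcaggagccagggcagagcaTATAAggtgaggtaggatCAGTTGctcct
Hbb-bt: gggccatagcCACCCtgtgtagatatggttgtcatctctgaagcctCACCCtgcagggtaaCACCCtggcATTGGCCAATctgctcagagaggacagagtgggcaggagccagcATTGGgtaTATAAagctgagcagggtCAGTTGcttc
Alas2: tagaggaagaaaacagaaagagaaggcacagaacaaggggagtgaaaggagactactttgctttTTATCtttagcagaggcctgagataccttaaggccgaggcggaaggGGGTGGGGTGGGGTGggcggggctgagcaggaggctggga
Klf1: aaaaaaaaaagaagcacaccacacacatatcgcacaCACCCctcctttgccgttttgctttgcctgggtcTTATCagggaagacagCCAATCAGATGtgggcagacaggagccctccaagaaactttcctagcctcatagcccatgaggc

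Both alpha globin promoters carried a CCAAT box, then the KLF1 type box, then a TATA box, and 96.1% of their aligned bases were identical. The beta globin promoters had the KLF1 type box, then a CCAAT box, then a TATA box, with 72.4% identity, and Hbb-bt had 3 CACCC matches where Hbb-bs had 1. Alas2 and Klf1 each held the reverse complement of GATAA, 86 and 80 bases before the start, and no TATAA in this stretch. RefSeq promoters of 26 members, 32 windows of 300 bases that reach 50 bases past the start, were searched beside 32851 windows of all genes. Windows of genes with several starts can overlap. No window was searched for Ank1, Fech, Nfe2, Slc25a37 and Slc4a1. Member windows on chromosome 18, where Fech lies, were left out, a limit not set on the windows of all genes. GATAA was in 17 of the 32 windows (53.1%) and in 25.4% of all windows. CACCC was in 22 (68.8% against 57.5%), CCAAT in 17 (53.1% against 37.4%), TATAA in 11 (34.4% against 24.9%), CAGNTG in 17 (53.1% against 51.4%) and TGAGTCA in 3 (9.38% against 5.2%). These are matches of letters, not sites.

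Across the 6 libraries, no erythroid gene passed the test between genotypes. All 31 members passed the filter on low counts, and 0 reached an adjusted p under 0.05 with the quasi-likelihood test of edgeR, while 0.396% of the 19687 genes tested did. At an unadjusted p under 0.05 there were 2 members, Hbb-bs and Hba-a1, against 19.6% of all genes (edgeR). DESeq2 called 1 member, Hbb-bs, lower (adjusted p = 0.0366), where 7.76% of genes were called, 4.77% lower and 2.98% higher. With limma-voom and library quality weights, chosen after seeing the data, 4 members were lower (Hbb-bs, Hba-a1, Hba-a2 and Alas2), where 7.28% of genes were called, 3.97% lower and 3.32% higher. Fitted changes were below 0 in 26 of 31 members, against 51.0% of all genes, and the median log2 fold change was −0.33 over the members, −0.01 over all genes. The 3 KO libraries lay inside the range of the 3 WT libraries in 29 of the 31 members, against 30.6% of all genes tested. The width of the WT range came from WT replicate 1, which was the lowest of the 6 libraries in those 29 members, against 29.6% of all genes. WT replicates 2 and 3, set apart after the values were seen, were both above every KO library in 29 of 31 members, against 22.8% of all genes. In bulk tissue, fewer erythroid cells and less RNA per cell cannot be told apart.

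**Figure D1:**
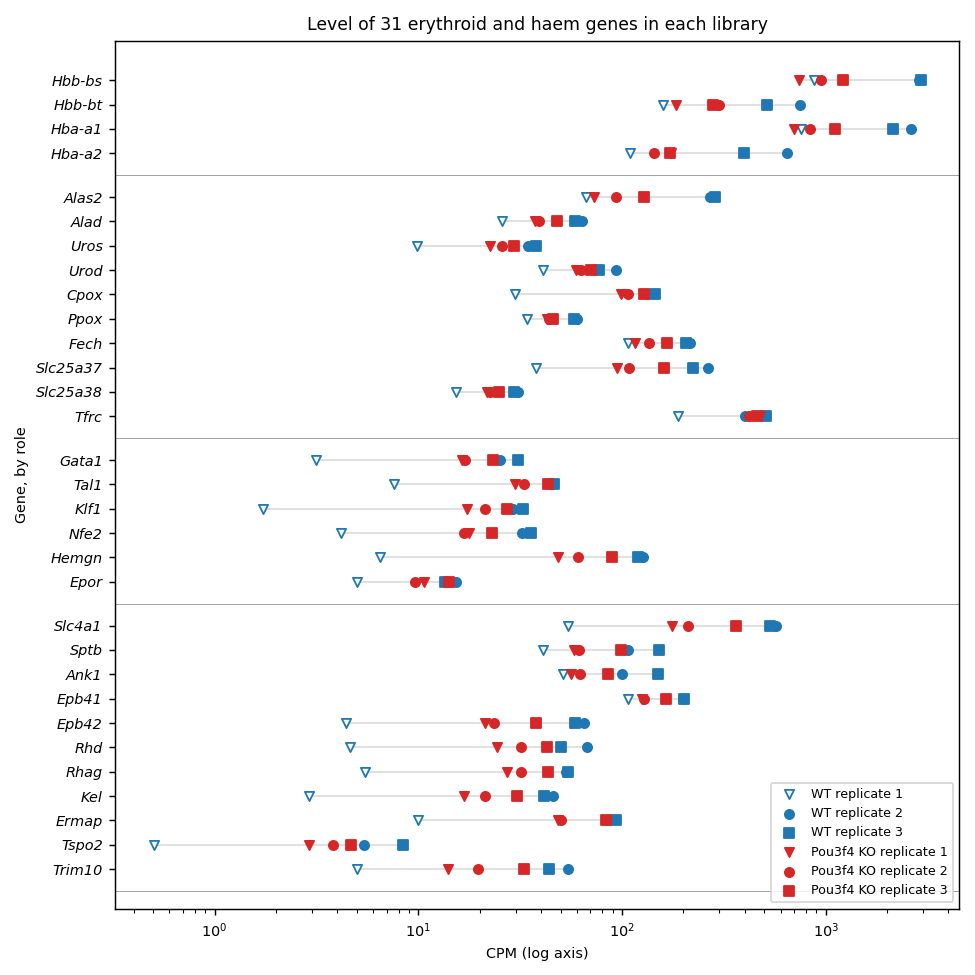
Level of each of the 31 members in CPM (log axis) in every library, grouped by role; blue symbols are WT, red symbols are Pou3f4 KO, and the open triangle is WT replicate 1. WT replicate 1 is lowest in 29 members, and all 3 KO libraries lie inside the WT range in the same 29.

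Hbb-bs and Hba-a1 had the highest mean CPM of the members in both groups. Hbb-bs, an adult beta chain gene, is at mm10 chromosome 7, 103826534 to 103828096, minus strand (ENSMUSG00000052305). It stood at 874, 2860 and 2936 CPM across WT (libraries in replicate order throughout), against 736, 951 and 1219 CPM across KO. WT replicate 1 lay among the KO libraries, and both other WT libraries lay above all of them. The log2 fold change of Hbb-bs was −1.20 (SE 0.45, adjusted p = 0.217, edgeR). Hba-a1, an adult alpha chain (ENSMUSG00000069919, chromosome 11, 32283511 to 32284465, plus strand), stood at 757, 2629 and 2129 CPM across WT, against 698, 834 and 1109 CPM across KO. Its groups overlapped through WT replicate 1, and its change was −1.06 (SE 0.44, adjusted p = 0.247, edgeR). Hba-a2, the second alpha gene (ENSMUSG00000069917, chromosome 11, 32296489 to 32297298), stood at 109, 643 and 395 CPM across WT, against 173, 143 and 172 CPM across KO, a change of −1.23 (SE 0.56, adjusted p = 0.279, edgeR). Hbb-bt, the neighbouring beta gene (ENSMUSG00000073940, chromosome 7, 103812524 to 103813996), stood at 158, 747 and 518 CPM across WT, against 183, 300.4 and 281 CPM across KO (−0.90, SE 0.52, adjusted p = 0.382, edgeR). For both of these, WT replicate 1 was the lowest library.

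The 4 globins together took 0.183%, 0.717% and 0.615% of all WT counts, against 0.176%, 0.221% and 0.272% of KO counts. The Wilson 95% intervals were narrow, for example 0.181% to 0.185% in WT replicate 1, and cover counting error only. Means were 0.505% ± 0.283 in WT and 0.223% ± 0.0480 in KO (SD, n = 3 each), and the two-sided exact permutation test gave p = 0.3, where 0.1 is the smallest p that 3 against 3 allows. The ratio of alpha to beta globin counts was 0.839, 0.907 and 0.731 in WT and 0.948, 0.781 and 0.854 in KO, and the groups overlapped (exact permutation p = 0.7). Hba-a2 made up 12.6%, 19.6% and 15.7% of alpha globin counts in WT and 19.9%, 14.7% and 13.4% in KO (exact permutation p = 1). Hbb-bt made up 15.3%, 20.7% and 15.0% of beta globin counts in WT and 19.9%, 24.0% and 18.7% in KO (exact permutation p = 0.3). The split within each pair is uncertain, because 63.3% of the windows of 100 bases in Hba-a1 transcripts also occur in Hba-a2 and 79.5% in the other direction. For Hbb-bs and Hbb-bt the shares were 49.7% and 54.8%, and how reads that match both copies were counted is not given in the sources used here.

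Embryonic globins were close to absent. Of 8 embryonic and minor globin genes, Hbb-bh2 and Hbb-bh0 had 0 counts in all libraries, and a count of 0 allows up to 0.131 to 0.168 CPM. The embryonic beta-like genes Hbb-y and Hbb-bh1 had at most 4 counts in any library. Hba-x, the embryonic alpha-like gene, had 0, 2 and 55 WT counts against 1, 9 and 1 KO counts, so 1 WT library held most of them. Hbq1b, a theta globin and the only one of the 8 tested, stood at 0.838, 5.89 and 5.59 CPM across WT, against 1.18, 1.53 and 3.08 CPM across KO (−1.11, SE 0.71, adjusted p = 0.425, edgeR), with WT replicate 1 the lowest library and WT replicates 2 and 3 above all KO libraries.

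**Figure D2:**
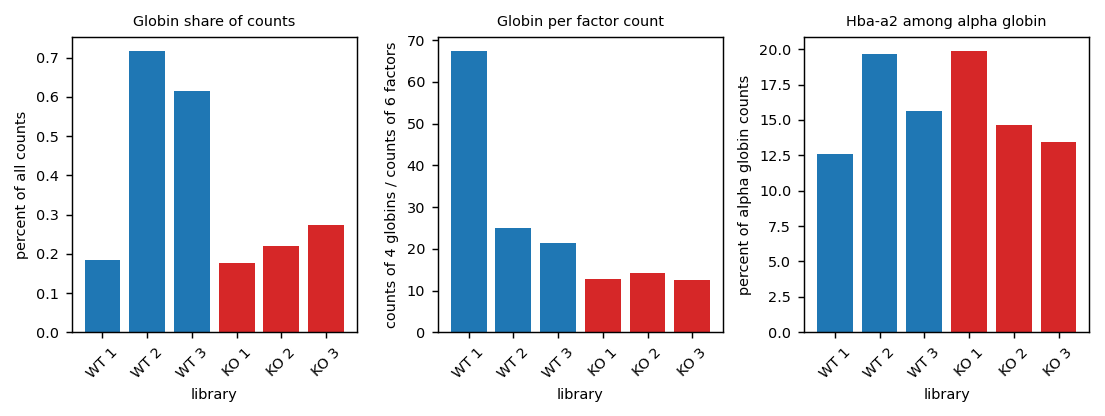
Bars show, for each library (WT blue, Pou3f4 KO red), the share of all counts in the 4 adult globins, the counts of those globins per count of 6 erythroid factors, and the share of alpha globin counts in Hba-a2. WT replicate 1 has a globin share of 0.183%, near KO, but 67.4 globin counts per factor count, the highest of the 6.

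Haem synthesis was read along the pathway. Alas2, the rate-limiting erythroid enzyme of the first step (ENSMUSG00000025270, chromosome X, 150547375 to 150570638, plus strand), stood at 66.3, 269 and 285 CPM across WT, against 73.0, 93.5 and 127 CPM across KO. WT replicate 1 was again beside the KO libraries, and the change was −1.08 (SE 0.52, adjusted p = 0.307, edgeR). Exons of Alas2 and those of Apex2 overlap on opposite strands for 12.9% of the Alas2 exon bases. Alas1, the form that all tissues use, did not follow this order, at 76.9, 52.9 and 56.6 CPM across WT, against 52.1, 54.9 and 52.5 CPM across KO. Alad, the second enzyme, stood at 49.5 ± 20.6 CPM across WT, against 41.6 ± 5.66 CPM across KO (SD, n = 3). Uros and Urod, which close and then trim the porphyrin ring, stood at 27.3 ± 15.2 against 25.9 ± 3.44 CPM and at 70.4 ± 26.8 against 64.1 ± 5.45 CPM. Cpox, the coproporphyrinogen oxidase, stood at 29.9, 133 and 145 CPM across WT, against 98.5, 107 and 127 CPM across KO. The KO values lay within the WT range, with a fitted change of 0.11 (SE 0.52, adjusted p = 0.928, edgeR). Ppox, the oxidase of the next step, stood at 50.8 ± 14.3 and 44.3 ± 1.61 CPM, and 17.5% of its exon length overlaps B4galt3 on the opposite strand. Fech, which inserts the iron, stood at 177 ± 60.2 and 139 ± 25.5 CPM.

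Among the carriers that feed the pathway, Slc25a37 (mitoferrin-1, mitochondrial iron import) stood at 37.9, 265 and 223 CPM across WT, against 94.4, 108 and 161 CPM across KO. Slc25a38, the mitochondrial glycine carrier, stood at 25.2 ± 8.60 and 23.1 ± 1.69 CPM. Tfrc, the transferrin receptor through which erythroblasts and dividing cells take up iron (ENSMUSG00000022797, chromosome 16, 32608920 to 32632794, plus strand), stood at 187, 400.4 and 511 CPM across WT, against 474, 420 and 459 CPM across KO. It was the member with the highest fitted change, 0.30 (SE 0.33, adjusted p = 0.647, edgeR), and its KO libraries lay between WT replicates 2 and 3. Counts of Tfrc per count of Alas2 were 2.83, 1.49 and 1.79 in WT and 6.49, 4.49 and 3.60 in KO, so the groups did not overlap in this ratio. The ratio was chosen after its values were seen and was not tested. Taken singly, 27.7% of all genes tested had no overlap between the groups.

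The factors and the erythropoietin receptor had a median fitted change of −0.03, and WT replicate 1 was the lowest library in all 6 of them. Gata1, the master factor of the lineage (ENSMUSG00000031162, chromosome X, 7959260 to 7978071, minus strand), stood at 3.13, 25.3 and 31.02 CPM across WT, against 16.3, 16.99 and 23.3 CPM across KO, a change of −0.07 (SE 0.69, adjusted p = 0.966, edgeR). Klf1, which drives adult beta globin (ENSMUSG00000054191, chromosome 8, 84901928 to 84905295, plus strand), stood at 1.73, 29.0 and 32.5 CPM across WT, against 17.4, 21.2 and 27.1 CPM across KO, a change of 0.05 (SE 0.83, adjusted p = 0.982, edgeR). In both, WT replicate 1 lay far below the other 5 libraries. Tal1, a partner of GATA1, stood at 7.60, 45.9 and 46.2 CPM across WT, against 29.8, 33.0 and 43.3 CPM across KO (0.09, SE 0.59, adjusted p = 0.951, edgeR). Hemgn, an erythroid nuclear protein, had 116, 2439 and 2365 counts in WT and 1110, 1392 and 1648 in KO. Nfe2, the erythroid subunit of NF-E2, stood at 24.1 ± 17.3 and 19.2 ± 3.39 CPM, and Epor, the erythropoietin receptor, at 11.3 ± 5.53 and 11.5 ± 2.36 CPM (SD, n = 3).

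Membrane and skeleton genes had 11 of 11 fitted changes below 0, with a median of −0.40 and none past the threshold (smallest adjusted p 0.442, edgeR). Slc4a1, the anion exchanger band 3 (ENSMUSG00000006574, chromosome 11, 102348824 to 102366203, minus strand), stood at 54.2, 568 and 530.2 CPM across WT, against 177, 211 and 361 CPM across KO. The KO libraries lay between WT replicate 1 and the other WT libraries, with a change of −0.62 (SE 0.76, adjusted p = 0.68, edgeR). Epb42 (protein 4.2, which ties band 3 to the skeleton) stood at 4.41, 64.9 and 58.9 CPM across WT, against 21.2, 23.5 and 37.6 CPM across KO. The spectrin chain Sptb stood at 99.8 ± 55.7 and 72.8 ± 22.6 CPM, its anchor Ank1 at 101 ± 49.8 and 68.0 ± 15.5 CPM, and Epb41 (protein 4.1) at 169 ± 54.1 and 139 ± 22.3 CPM. These 3 are made by other cells too, and their level in WT replicate 1 was 31.5%, 40.8% and 53.3% of the mean of WT replicates 2 and 3. In the blood group genes Rhd, Rhag and Kel that share was 7.90%, 10.2% and 6.66%, with group means of 40.7 against 33.0, 37.6 against 34.2 and 30.0 against 22.8 CPM. Ermap, a membrane protein of the immunoglobulin family, stood at 63.0 ± 46.1 and 60.5 ± 19.5 CPM, and Trim10, a RING protein of erythroid cells, at 34.3 ± 25.9 and 22.3 ± 9.76 CPM. Tspo2, an erythroid relative of the translocator protein, was the lowest member, with 9, 104 and 166 counts in WT and 67, 87 and 86 in KO.

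Per kilobase of exon, the mean level in WT was 2895 CPM for Hbb-bs and 2264 CPM for Hba-a1, then 675 CPM for Hbb-bt and 573 CPM for Hba-a2. Alas2, Slc4a1 and Tfrc followed at 86.1, 78.6 and 59.2 CPM per kilobase. In KO the order of these 3 was different, with Tfrc at 72.9, Slc4a1 at 51.0 and Alas2 at 40.8 CPM per kilobase. The libraries of each of these 3 genes varied in WT by a CV of 44.9% to 74.6%, and all 3 were lowest in WT replicate 1. This spread is in part shared between the genes, so it does not decide their order. The order was not tested in WT or in KO.

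The gap between WT replicate 1 and the other WT libraries differed across roles. Its level was under 50% of the mean of WT replicates 2 and 3 in 27 of 31 members, against 7.88% of all genes tested, whose median was 99.7%. Factors stood at a median of 11.7% and membrane genes at 10.2%, globins at 27.6%, and haem synthesis and iron entry at 41.6%. The lowest shares were 5.24% for Hemgn and 5.63% for Klf1, and the highest was 58.1% for Ppox. In KO the order was another one. The KO mean was 35.2% of the mean of WT replicates 2 and 3 for the median globin, 54.6% for membrane genes, 69.1% for factors and 73.4% for haem synthesis and iron entry, from 31.4% for Hba-a2 to 98.9% for Tfrc. Within KO the libraries also differed together, with KO replicate 3 the highest of the 3 in 28 members (39.3% of all genes) and KO replicate 1 the lowest in 27 (30.9% of all genes).

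**Figure D3:**
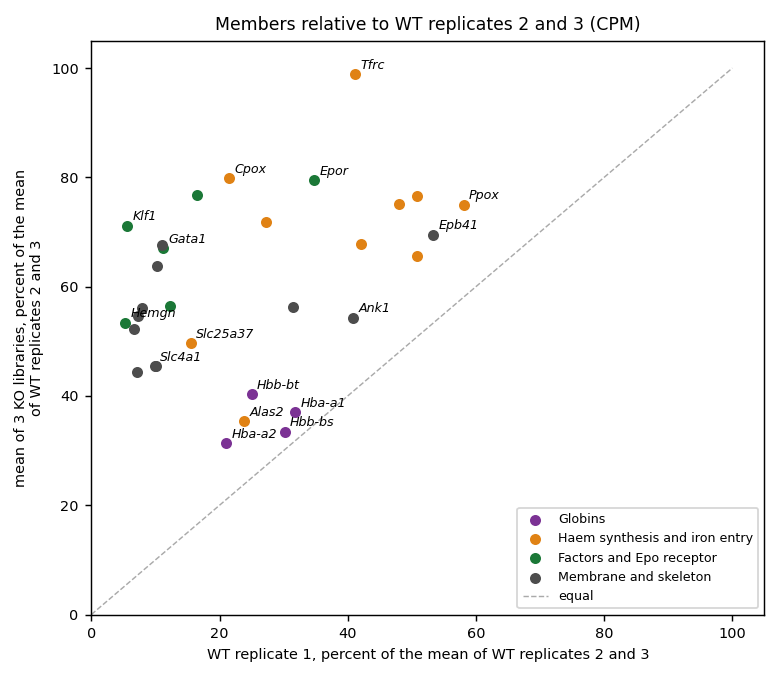
Each point is 1 member, coloured by role, with the level in WT replicate 1 (horizontal) and the mean of the 3 KO libraries (vertical), both as a percent of the mean CPM of WT replicates 2 and 3; the dashed line marks equal shares. Factors and several membrane genes lie at the left edge, while the globins and Alas2 lie near the line at the bottom, at 31.4% to 40.3% on the vertical axis.

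Globin counts per count of the 6 factors were 67.4, 25.0 and 21.4 in WT and 12.8, 14.1 and 12.6 in KO. Every KO library was below every WT library in this ratio, and WT replicate 1 was the highest. Counts of Alas2 per factor count behaved likewise, at 2.35, 0.980 and 1.02 in WT and 0.521, 0.591 and 0.579 in KO. Globin counts per count of Alas2 were 28.6, 25.5 and 21.0 in WT and 24.5, 23.8 and 21.8 in KO, so globins and Alas2 moved nearly in step and the groups overlapped. Membrane gene counts per factor count were 10.1, 4.91 and 4.96 in WT and 4.07, 4.07 and 4.48 in KO, also without overlap. These ratios were chosen after their values were seen and were not tested. Taken singly, 27.7% of all genes tested had no overlap between the groups, and no such share was computed for ratios.

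Without WT replicate 1, all 31 fitted changes were below 0, with a median of −0.84 against −0.0035 for all genes. Of the members, 13 were lower in KO and 0 higher (edgeR, 20019 genes tested), where 9.06% of all genes were called, 5.46% lower and 3.6% higher, and 29 had an unadjusted p under 0.05, against 29.3% of all genes. The calls covered all 4 globins, 6 of 10 haem synthesis and iron entry genes, 1 of 6 factors and 2 of 11 membrane genes. Globins were 2.50-fold to 3.21-fold lower, as in Hbb-bs (−1.59, SE 0.19, adjusted p = 0.0113, edgeR) and Hba-a2 (−1.68, SE 0.20, adjusted p = 0.0113, edgeR). Alas2 was 2.86-fold lower (−1.52, SE 0.21, adjusted p = 0.016, edgeR), Slc25a37 2.03-fold, and Fech, Alad, Ppox and Slc25a38 1.54-fold to 1.32-fold. Nfe2 was the factor called (−0.84, SE 0.15, adjusted p = 0.0254, edgeR), while Klf1 (−0.51, SE 0.18, adjusted p = 0.126, edgeR) and Gata1 (−0.59, SE 0.18, adjusted p = 0.0872, edgeR) were not. Epb42 was 2.28-fold lower and Epb41 1.45-fold, and Slc4a1 missed the threshold (−1.15, SE 0.28, adjusted p = 0.0537, edgeR). Tfrc stayed near 0 (−0.03, SE 0.12, adjusted p = 0.891, edgeR). DESeq2 without the same library called 24 members lower, among them the 13, where 16.0% of all genes were called, 9.21% lower and 6.81% higher. This comparison rests on 2 WT libraries. The library left out was picked because it was low in these same genes. Its removal raises the WT mean of genes low in it, so lower KO values are partly built in. Leaving out any other single library gave 0 calls among the members with edgeR. Without WT replicate 3 or any 1 KO library, 0 genes of the whole table were called, so no member could be. Without WT replicate 2 other genes were called, as numbered in the closing section.

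**Figure D4:**
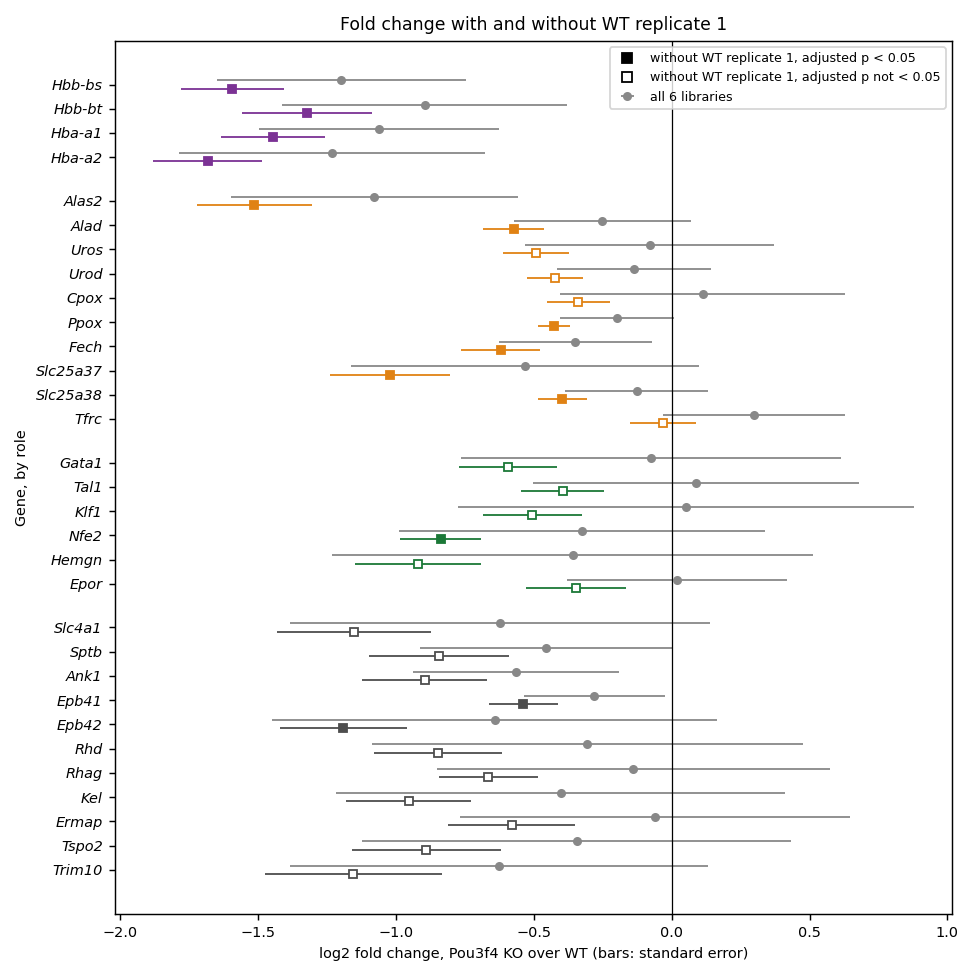
Log2 fold change (KO over WT) of each member with its standard error, from all 6 libraries (grey circles) and without WT replicate 1 (squares, filled where the adjusted p is under 0.05). The squares lie left of the circles in all 31 members, and 13 are filled.

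Other genes of the pathway were read from 8 lists made by function. Over all 6 libraries, 1 gene in these lists passed, Bcam, a laminin receptor of red cells and other cells. It stood at 87.9, 100.2 and 87.2 CPM across WT, against 56.5, 58.0 and 62.5 CPM across KO, and fell 1.55-fold (−0.64, SE 0.09, adjusted p = 0.049, edgeR). Its groups did not overlap, which was so in 27.7% of all genes tested. The call was lost with upper-quartile scaling, library totals alone, limma-voom and the replicate block, and without WT replicate 3 or any 1 of the KO libraries. It held without WT replicate 1 (adjusted p = 0.0113, edgeR). Bcam was not low in WT replicate 1, at 93.8% of the mean of the other WT libraries. Of 17 other red cell skeleton and surface genes, 15 had changes below 0 (median −0.28), against 51.0% of all genes. Of 14 red cell enzymes 12 did (median −0.26), and Car2, a carbonic anhydrase, stood at 68.2, 502 and 476 CPM across WT, against 263, 286 and 371 CPM across KO, while the peroxiredoxin Prdx2 stood at 310.1 ± 102 and 310.1 ± 18.02 CPM. Without WT replicate 1, 9 of the 17 surface genes were called lower and 1 higher, and 8 of the 14 enzymes were called lower (edgeR). Of all genes in that fit, 5.46% were called lower and 3.6% higher. The library left out was picked for low values in the members, so lower KO values are partly built in here too. Among other haem synthesis genes, the most abundant over 6 libraries, Hspa9, a mitochondrial chaperone, stood at 292 ± 90.1 and 236 ± 4.03 CPM, and Snx3, which recycles the transferrin receptor, at 136 ± 15.7 and 132 ± 2.89 CPM.

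Genes of iron storage and haem disposal differed in how they varied across libraries. The ferritin chain Fth1 measured 618, 863 and 936 CPM in WT and 656, 681 and 652 CPM in KO, with WT replicate 1 lowest and the other WT libraries above all KO libraries, as in most members. The other ferritin chain, Ftl1, stood at 791 ± 28.7 against 864 ± 19.5 CPM (SD, n = 3 each), and 0 of 11 tested iron genes passed over 6 libraries. Without WT replicate 1, Fth1 and transferrin, Trf, were lower in KO, and Trf had WT replicate 1 lowest as well (204 CPM, against 491 and 451 CPM in the other WT libraries and 262 to 282 CPM in KO). For haem export and breakdown, 0 of 12 passed, and the abundant Lrp1, a receptor for haem bound to haemopexin, stood at 442 ± 106 and 451 ± 57.3 CPM. The haem transporter Slc48a1 stood at 101 ± 7.86 and 84.8 ± 2.18 CPM and was lower, with Blvrb, in the fit without WT replicate 1. Blvrb, a biliverdin reductase, measured 19.8, 70.3 and 71.5 CPM in WT and 44.4, 50.03 and 57.8 CPM in KO. Of 15 other erythroid factors 0 passed over 6 libraries, and Lmo2, a partner of TAL1, was lower without WT replicate 1 (−0.53, SE 0.09, adjusted p = 0.0241, edgeR). The most abundant of them, the cofactor Ldb1 and the factor Foxo3, stood at 118 ± 16.1 against 110 ± 0.208 CPM and 96.8 ± 19.8 against 114 ± 8.06 CPM.

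Marker lists of other cells moved with the members in part. WT replicate 1 was also low in neutrophil markers other than Mmp9 (224 CPM summed over 13 genes, against 1020 and 1341 CPM in WT replicates 2 and 3), and in cell cycle genes (778 CPM over 18 genes, against 1586 and 1507 CPM). The KO libraries held 938 to 1033 CPM of those neutrophil markers and 1429 to 1742 CPM of the cell cycle genes. Mmp9 alone, left out after its values were seen because osteoclasts make it too, was 1721 to 2449 CPM across WT, against 3187 to 3534 CPM across KO. Megakaryocyte and platelet markers summed, with Itgb3, to 183, 344 and 349 CPM across WT, against 378 to 413 CPM across KO. Without Itgb3, which osteoclasts also make, they summed to 71.8, 166 and 206 CPM in WT and 145, 119 and 111 CPM in KO, so KO lay below WT replicates 2 and 3. Macrophage markers summed to 581 to 673 CPM across WT, against 845 to 925 CPM across KO. B cell markers ranged from 119 to 290 CPM across WT, against 168 to 191 CPM across KO. Without Ebf1, which other cells also express, they summed to 25.5, 204 and 48.9 CPM in WT and 98.2 to 116 CPM in KO, with WT replicate 1 the lowest library. Itgb3 and Ebf1 were left out after their values were seen. Markers of mast cells, basophils and eosinophils ranged from 100.1 to 230 CPM in WT and from 66.6 to 90.4 CPM in KO. These sums mix genes that went opposite ways in WT replicate 1. As a share of the mean of the other WT libraries, Cpa3, Mcpt4, Tpsb2 and Cma1 stood at 389%, 528%, 382% and 519% there. Prg2, Epx and Mcpt8 stood at 10.7%, 11.6% and 24.7%. None of the markers in these lists was at 0 in every library, and edgeR called none of them over 6 libraries. The sum of the endothelial markers was highest in WT replicate 1, at 647 CPM against 458 to 544 CPM elsewhere. Emcn was lowest there (34.5 CPM, against 39.4 to 51.5 CPM elsewhere), and Cdh5 and Flt1 were not highest there. The other markers of this list were highest there, as was Pecam1 (177 CPM, against 83.6 to 103 CPM elsewhere). Otor was the 1 inner ear marker called over 6 libraries, lower in KO. Inner ear markers Coch and Otos were low in WT replicate 1, at 24.9% and 23.6% of the mean of the other WT libraries, as were the erythroid genes. These were the lowest shares in the inner ear list. Its other markers ranged from 34.7% for Otof to 121% for Slc26a4. Skeletal muscle markers summed to 5979, 217 and 10405 CPM across WT, against 68.4, 826 and 71.1 CPM across KO. Within WT, muscle was lowest in replicate 2 and highest in replicate 3, where the 4 globins summed to 6879 and 5978 CPM. WT replicate 2 was the highest WT library in 16 members and WT replicate 3 in 15. Among the 15 were Sptb (107 CPM in WT replicate 2, 151 CPM in WT replicate 3) and Ank1 (99.8 and 151 CPM). The part of these cell types in the erythroid values was not tested.

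**Figure D5:**
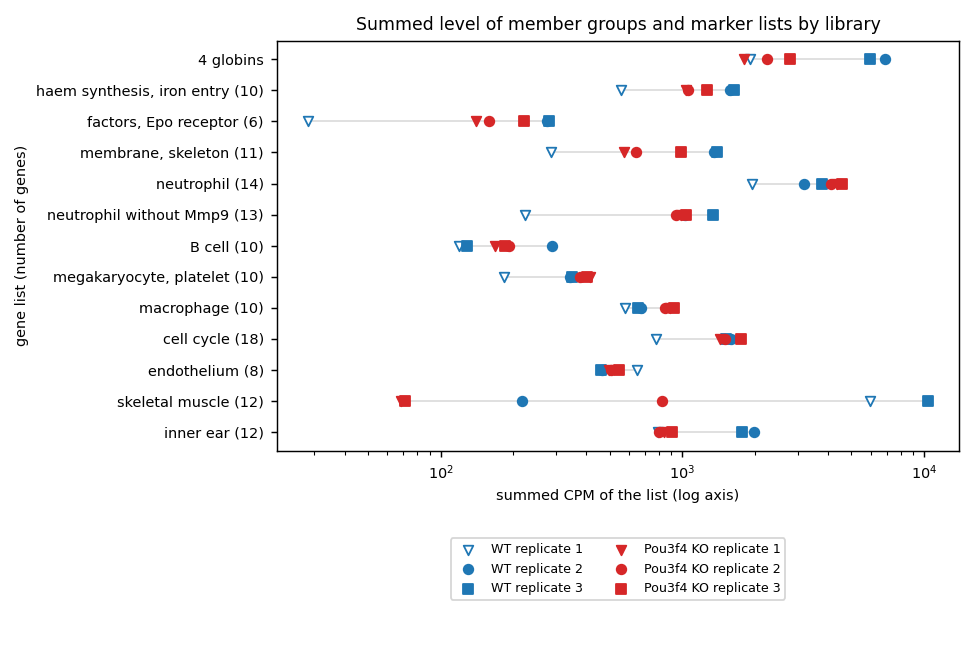
Summed CPM (log axis) of the 4 member groups and of marker lists in each library, with the number of genes per list in brackets; blue symbols are WT, red are Pou3f4 KO, and the open triangle is WT replicate 1. The erythroid groups, neutrophil markers without Mmp9 and cell cycle genes share a low value in WT replicate 1. Muscle spans 68.4 to 10405 CPM, lowest in KO replicate 1 and highest in WT replicate 3.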

How the data were processed

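Gene counts were measured by RNA sequencing of inner ear in 3 WT and 3 Pou3f4 KO libraries. The authors deposited raw read counts per gene, whole numbers without normalisation. Per the labels' protocols, RNA was extracted with TRIzol and libraries were made with a stranded mRNA kit. HTSeq, HISAT2, Trimmomatic and Cufflinks, with build mm10, appear in the submitters' processing notes. The sources used here do not give versions, annotation release, strand setting or how reads matching several genes were handled. The last can change the split between near-identical globin genes.

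Genes were kept with filterByExpr (minimum count 10), scaled by TMM and compared with the quasi-likelihood test of edgeR 4.0.16 (R 4.3.3), genotype alone, with Benjamini-Hochberg adjustment over all 19687 genes and a threshold of 0.05. Log2 fold changes are KO over WT. SE is the change divided by the square root of F. CPM uses the TMM-scaled sizes. DESeq2 1.42.0 and limma 3.58.1 (voom) were alternatives, with other scalings, filters, a replicate block and leaving out each library. The fits were tested on simulated counts. Shares were compared with an exact permutation test (scipy 1.17.1). Depth was 18409409 to 23323953 counts, and a count of 0 allows 3 reads, or 0.131 to 0.168 CPM, for counting error only. Exon lengths and overlaps come from GENCODE M21, in which 30 of 31 members have the deposited coordinates. Promoters come from RefSeq (GRCm38.p6).

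The members and lists were chosen with earlier results of these data known. Values in every library were given for the globins, Alas2, Gata1, Klf1, Slc4a1, Tfrc and the 3 members with the largest change in each direction. Other members were given by means, unless chosen after their values were seen (Alas1, Fth1, Car2, Slc25a37, Hemgn, Epb42, Tspo2, Sptb and Ank1). Other lists gave members past the threshold or the 2 most abundant. Trf, Coch, Otor, Otos, Otof, Slc26a4, Mmp9, Itgb3, Ebf1, Lmo2, Blvrb and the embryonic globins were named after their values were seen. So were Tectb and the single markers of mast cells, basophils, eosinophils, macrophages and endothelium. One gene is not reported here. The labels do not say whether replicates are separate animals, so p-values measure only the spread between these samples.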

Additional observations from a re-analysis of the deposited data

How the results depend on the processing

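The finding that no member passed over 6 libraries held under RLE and upper-quartile scaling, library totals alone, no filter, a filter of 1 CPM in 3 libraries, limma-voom, the replicate block, and without globin or muscle and mitochondrial genes. DESeq2 called 1 member and 1505 genes (579 higher, 926 lower), limma-voom with library quality weights (added after the data were seen) 4 members and 1434 genes (653 higher, 781 lower). Library totals alone gave 7 genes (1 higher, 6 lower). Pathway list calls were 1 with 6 libraries, 3 with DESeq2, 10 with quality weights and 0 with library totals alone, upper-quartile scaling, limma-voom or the block. Same-numbered libraries did not deviate together (correlations −0.13, −0.29 and −0.19), and the replicate block left 1 gene (0 higher, 1 lower) and 0 members, with a member median of −0.07.

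Leaving out 1 library in edgeR gave 0 to 13 members, 0 to 1814 genes (0 to 721 higher, 0 to 1093 lower), 0 to 24 pathway genes, a member median of −0.84 to −0.059 and a globin share difference (KO minus WT) of −0.442 to −0.176 percentage points. DESeq2 without WT replicate 1 (added after the data were seen) gave 24 members, 2934 genes (1248 higher, 1686 lower), 33 pathway genes and a member median of −0.83. Genes called numbered 760 without WT replicate 2 and 0 without WT replicate 3 or any 1 KO library.

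Signs of some changes turned. With limma-voom, Ermap was 0.41, Gata1 0.41, Hemgn 0.43, Kel 0.25, Nfe2 0.12, Rhag 0.37, Rhd 0.30, Tspo2 0.31 and Uros 0.11. With the replicate block they were 0.36, 0.35, 0.29, 0.16, 0.069, 0.31, 0.24, 0.14 and 0.12. With library totals alone Epor was −0.039 and Klf1 −0.016, and with quality weights Cpox −0.21, Epor −0.26, Klf1 −0.29 and Tal1 −0.27. Leaving out 1 library in edgeR spanned −0.34 to 0.45 for Cpox, −0.35 to 0.30 for Epor, −0.58 to 0.34 for Ermap, −0.59 to 0.41 for Gata1, −0.92 to 0.057 for Hemgn, −0.95 to 0.033 for Kel, −0.51 to 0.51 for Klf1, −0.84 to 0.076 for Nfe2, −0.67 to 0.22 for Rhag, −0.85 to 0.26 for Rhd, −0.40 to 0.047 for Slc25a38, −0.40 to 0.40 for Tal1, −0.030 to 0.62 for Tfrc, −0.89 to 0.35 for Tspo2, −0.42 to 0.12 for Urod and −0.49 to 0.22 for Uros. In DESeq2 without WT replicate 1, values were Cpox −0.33, Epor −0.34, Klf1 −0.50, Tal1 −0.39 and Tfrc −0.025. The cause was not tested. Signs of the globins and Alas2 did not turn in any of these fits. Nor did those of Alad, Ppox, Fech, Slc25a37, Slc4a1, Sptb, Ank1, Epb41, Epb42 and Trim10. Depth limits Tspo2, at 9 counts in WT replicate 1.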
